A study of Mus musculus with 11 samples.

Results

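Vimentin and 8 genes of the contractile cytoskeleton were followed across the MamBo mammary carcinoma lines. They were taken by symbol from a count table of 21846 mouse genes. The 9 genes were the intermediate filament genes Vim and Nes, the smooth muscle actins Acta2 and Actg2, the tropomyosins Tpm1 and Tpm2, the myosin regulatory light chain Myl9, and the actin-associated genes Tagln and Cnn1. All 9 were found in the table and are protein-coding. In the GENCODE annotation of GRCm38, the genes with the largest differences below lie apart from each other, with Vim (ENSMUSG00000026728) at chr2:13573927-13582826 on the plus strand, Acta2 (ENSMUSG00000035783) at chr19:34241090-34255590 on the minus strand, Myl9 (ENSMUSG00000067818) at chr2:156775420-156781658 on the plus strand and Tpm2 (ENSMUSG00000028464) at chr4:43514711-43523765 on the minus strand.

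MamBo lines were derived from mammary tumors of virgin female FVBhuHER2 mice, which carry a human HER2 transgene. Tumor A gave MamBo89HER2stable and tumor B gave MamBo43HER2labile, both HER2-positive in culture, whereas MamBo38HER2loss was established from a HER2-negative tumor that grew after MamBo43 cells were injected into mice. Trastuzumab, an antibody against human HER2, was given at 30 µg/ml either for 60 days or for 30 days followed by 30 days without it. RNA-seq was available for 11 libraries, namely 4 of MamBo89, 1 of untreated MamBo43, 2 of trastuzumab-treated MamBo43 (MamBo43 TRT) and 4 of MamBo38. In MamBo89 and in MamBo38, replicates 1 and 2 were untreated, replicate 3 had 30 days with and 30 days without trastuzumab, and replicate 4 had 60 days with it. MamBo89 replicate 1 carries AG3 in its name and was taken as the HER2-positive clone that the methods list. MamBo38 replicate 2 carries the name code of the MamBo43 and MamBo89 libraries, and the other 3 MamBo38 libraries share another code, whose meaning the labels do not give. MamBo43 TRT cells were seeded at high density and are counted by the study as having lost HER2, although it describes a few polygonal cells left among the spindle-shaped ones at 60 days. Line and tumor of origin cannot be told apart between MamBo89 and the other lines.

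Vimentin is the main intermediate filament protein of mesenchymal cells, and in the mammary gland it marks stromal and myoepithelial cells rather than luminal ones. Smooth muscle actin, transgelin, calponin, tropomyosin and the regulatory light chain build the contractile apparatus of smooth muscle, of the myoepithelial cells that expel milk, and of myofibroblasts. Several of these genes are known targets of serum response factor (SRF) and its myocardin-family cofactors, which bind a motif called the CArG box.

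Promoter sequence from RefSeq (GRCm38.p6, the 250 bases before each gene's start) was on hand for 7 of the 9 genes, all but Actg2 and Tagln. The CArG box was searched as CC and GG around 6 bases that are all A or T, and a CArG-like box as the same with 1 of the inner bases G or C. The first form was present in 1.47% and the second in 7.24% of 32851 promoter sequences of the same length. Among the 7 genes they were present in Acta2 and Myl9. Both genes set MamBo43 TRT apart from the other cultures below, so each match is shown with its neighbouring bases, 5′ to 3′ on the strand of the gene, with the box in capitals.
Acta2, CArG-like box 84 bases before the start, chr19:34255438-34255467, minus strand: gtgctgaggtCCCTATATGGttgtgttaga
Acta2, CArG-like box 34 bases before the start, chr19:34255388-34255417, minus strand: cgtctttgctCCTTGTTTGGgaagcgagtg
Myl9, CArG box 161 bases before the start, chr2:156775293-156775322, plus strand: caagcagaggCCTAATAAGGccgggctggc
Myl9, CArG-like box 99 bases before the start, chr2:156775355-156775384, plus strand: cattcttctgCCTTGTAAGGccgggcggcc
Both Acta2 stretches lie in the first, untranslated exon of a longer GENCODE transcript of Acta2, and both Myl9 stretches lie outside annotated exons. Another motif, TATAAA on either strand, was in 12.4% of the promoter sequences and stood 32 bases before the start of Vim. The windows of Nes, Cnn1, Tpm1 and Tpm2 held none of the 3 motifs. The search patterns of the boxes are the same on both strands, a CArG box can itself hold TATAAA, and a match of letters is not a measured binding site.

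Libraries held 17040454 to 27127662 counts (median 20592201), so that 3 counts equal 0.113 to 0.179 CPM (counts of a gene per 1000000 counts, scaled by the TMM method). Cell type markers also differed between the lines. The 6 luminal markers (Epcam, Cdh1, Krt8, Krt18, Krt19 and Elf5) summed to 2349 to 3804 CPM in MamBo89, 3179 in MamBo43, 277 to 1746 in MamBo43 TRT and 1.25 to 2.51 in MamBo38. Krt19 had at most 1 count in any library of any line. The 7 fibroblast markers summed to 35.1 to 98.2 CPM in MamBo89, 285 in MamBo43, 6665 to 7139 in MamBo43 TRT and 3706 to 4438 in MamBo38, with Lum at 0 throughout. The 6 myoepithelial markers summed to 12.0 to 50.1 CPM in MamBo89, 26.1 in MamBo43, 44.6 to 157 in MamBo43 TRT and 0.503 to 1.25 in MamBo38. Krt17 was at 0 in MamBo38, and Krt5 was at 0 in MamBo38 and in MamBo43. The 8 pericyte and vascular smooth muscle markers summed to 151 to 238 CPM in MamBo89, 177 in MamBo43, 44.9 to 63.7 in MamBo43 TRT and 50.4 to 62.4 in MamBo38. Kcnj8 was at 0 in MamBo89 and MamBo43. Single markers of this list went both ways, with 2 called higher (Des and Cspg4) and 2 lower (Notch3 and Mcam) in MamBo38 than in MamBo89. Sums over 5 endothelial markers stayed between 0.275 and 1.56 CPM, and over 4 leukocyte markers between 1.1 and 50.1 CPM. Their part in the results below was not tested. In bulk cultures, fewer cells of a type and less RNA per cell cannot be told apart. The labels do not say whether libraries came from separate cultures, so p-values measure the spread between these libraries, which may be technical.

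**Figure D1:**
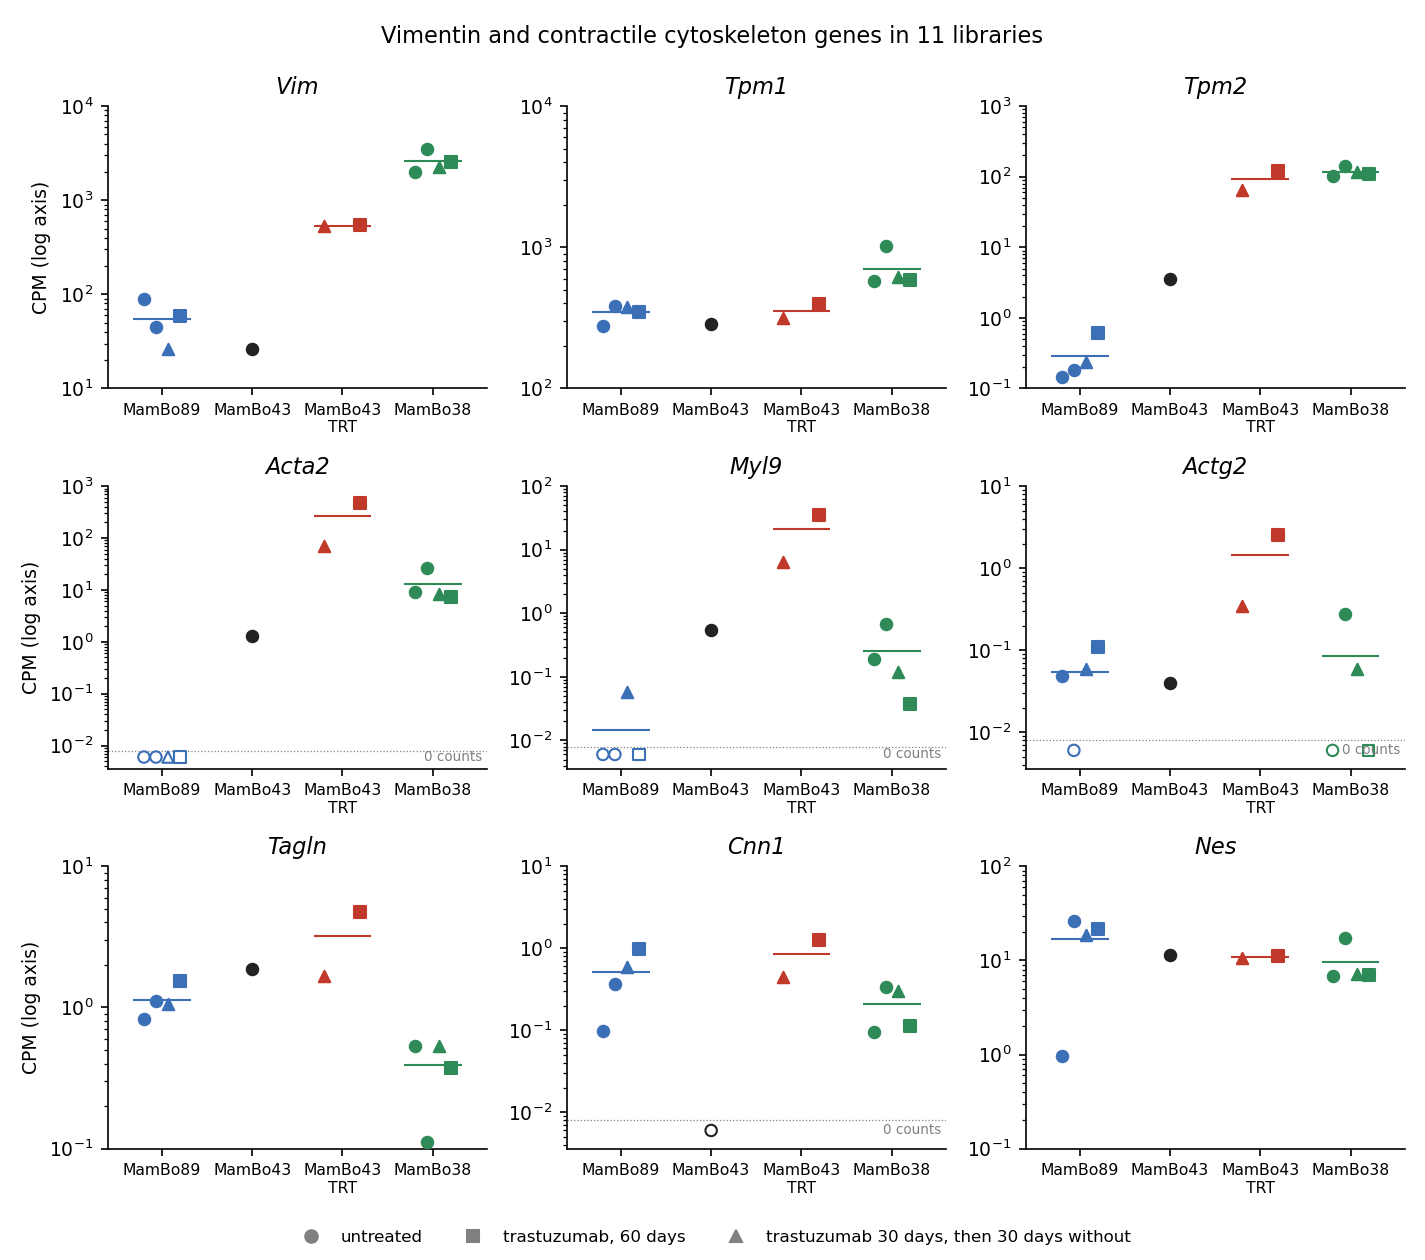
TMM-scaled CPM (log axis) of the 9 genes in each library by line, with untreated cultures as circles, 60 days of trastuzumab as squares, 30 days with and 30 days without as triangles, the group mean as a line and libraries with 0 counts as open symbols under the dotted line. Vim is highest in the 4 MamBo38 libraries, whereas Acta2, Myl9 and Actg2 are highest in the 2 MamBo43 TRT libraries, and no MamBo89 library has a count of Acta2.

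Vim set MamBo38 apart from all other cultures. It stood at 2009.7, 3511, 2239 and 2566 CPM in the 4 MamBo38 libraries, at 528 and 542 CPM in MamBo43 TRT after 30 and 60 days with trastuzumab, and at 26.0 CPM in untreated MamBo43. The MamBo89 libraries held 89.7, 45.4, 26.2 and 59.2 CPM, the highest in the AG3 library. The order was therefore MamBo38, MamBo43 TRT and then both HER2-positive lines, and neither of the first groups overlapped with any other. In edgeR's quasi-likelihood test over 13782 genes, the log2 difference of Vim was 5.55 ± 0.39 (SE) between MamBo38 and MamBo89, a 46.9-fold difference (adjusted p = 8.19e-07). It was 4.37 ± 0.71 between MamBo43 TRT and MamBo43 (20.7-fold, adjusted p = 0.00161) and 6.64 ± 0.79 between MamBo38 and MamBo43 (99.8-fold, adjusted p = 8.76e-05). MamBo43 TRT therefore remained below MamBo38, by 2.27 ± 0.44 on the log2 scale (4.83-fold, adjusted p = 0.00401). Untreated MamBo43 did not differ from MamBo89 beyond the threshold (log2 difference -1.09 ± 0.55, adjusted p = 0.198), although it did so without MamBo89 replicate 3 (-1.32, adjusted p = 0.0686). The lone MamBo43 library is assumed in all these tests to vary like the other groups.

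Nes, which encodes nestin, an intermediate filament protein of progenitor cells, kept within a narrow range in most libraries. It stood at 6.79, 17.3, 7.16 and 6.94 CPM in MamBo38, at 11.4 CPM in MamBo43 and at 10.6 and 11.2 CPM in MamBo43 TRT. In MamBo89 it stood at 0.970 CPM in the AG3 library and at 26.2, 18.7 and 21.7 CPM in the other 3. These 3 libraries lay above all others, and the AG3 library lay below all others. No comparison of Nes passed the test in all 11 libraries or within a line, and its smallest unadjusted p was 0.145. Without the AG3 library, Nes was lower in MamBo38 than in MamBo89 (log2 difference -1.21, adjusted p = 0.0064), and without MamBo38 replicate 2 as well the difference was -1.64 (adjusted p = 9.18e-06), a fit added after the data were seen.

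Acta2, the smooth muscle alpha actin, had no count in any of the 4 MamBo89 libraries, where 3 counts would have been 0.138 to 0.175 CPM. It stood at 1.297 CPM in untreated MamBo43 and at 9.06, 26.6, 8.47 and 7.35 CPM in MamBo38. In MamBo43 TRT it reached 69.2 CPM in the 30-day library and 466 CPM in the 60-day library. Hence the groups did not overlap, and the order was MamBo43 TRT, MamBo38, MamBo43 and MamBo89. MamBo38 was at least 82.5-fold above MamBo89, taking 3 counts per MamBo89 library as the floor (adjusted p = 0.000667). MamBo43 TRT exceeded MamBo43 by 7.69 ± 1.70 on the log2 scale (adjusted p = 0.0133) and MamBo38 by 4.38 ± 0.78 (20.9-fold, adjusted p = 0.00583). Without the 60-day library these differences were 5.74 (adjusted p = 0.0228) and 2.43 (adjusted p = 0.0556), and without the 30-day library 8.46 and 5.20. Without MamBo38 replicate 2, the second was 5.01 (adjusted p = 0.00573) and the fitted difference between MamBo38 and MamBo89 was 10.47 in place of 11.08. MamBo38 replicate 2 is the 1 library of its line that shares a name code with MamBo43 TRT. Differences of MamBo38 with the code as a covariate, or among libraries with a shared code, therefore rest on that library alone. With the code as a covariate MamBo43 TRT exceeded MamBo38 by 3.33 (adjusted p = 0.0839), and among libraries with a shared code the difference was 3.33 and not called (adjusted p = 0.221). MamBo38 exceeded MamBo43 by 3.31 ± 1.37 (adjusted p = 0.0909), a call lost without MamBo38 replicate 1, 2 or 3 (adjusted p = 0.111 to 0.114, with a difference of 2.68 without replicate 2), in the libraries that share a code (4.36, adjusted p = 0.135) and with untreated MamBo89 and MamBo38 alone (adjusted p = 0.122). The 33 counts of untreated MamBo43 were at least 8.31-fold above the floor of MamBo89 (adjusted p = 0.0883). That call was lost without any 1 of the MamBo89 libraries or of MamBo38 replicates 1, 3 and 4 (adjusted p = 0.102 to 0.14), in the libraries that share a code (adjusted p = 0.156) and with untreated MamBo89 and MamBo38 alone (adjusted p = 0.241).

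Actg2, the smooth muscle gamma actin, was nearly absent outside MamBo43 TRT. It had 7 counts in the 30-day and 66 counts in the 60-day MamBo43 TRT library (0.344 and 2.52 CPM), 1 count in untreated MamBo43, 1, 0, 1 and 2 counts in MamBo89, and 0, 5, 1 and 0 counts in MamBo38. Both treated MamBo43 libraries were thus above all 9 others. The rise from MamBo43 to MamBo43 TRT rested on 73 counts against 1, a ratio of 39.9 with a 95% interval of 6.94 to 1598 that covers counting error only (adjusted p = 0.0908). This call was lost without MamBo38 replicate 3 or MamBo89 replicate 2, 3 or 4 (adjusted p = 0.1003 to 0.122), and without the 30-day library its log2 difference was 5.79 in place of 5.01. The call was also lost with DESeq2 (adjusted p = 0.102), without a filter (adjusted p = 0.103) and with untreated MamBo89 and MamBo38 alone (adjusted p = 0.189). MamBo43 TRT exceeded MamBo38 by 4.13 ± 1.13 on the log2 scale (adjusted p = 0.02), by 6.06 without MamBo38 replicate 2 and by 4.95 without the 30-day library. It was 2.35 and not called with the name code as a covariate (adjusted p = 0.257) or in the libraries that share a code (adjusted p = 0.353), and 3.38 with untreated MamBo89 and MamBo38 alone (adjusted p = 0.211). Without the 60-day library, Actg2 did not pass the filter on low counts and could not be tested, so both calls rest on that library.

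Tropomyosins run along actin filaments and stabilise them. Tpm1 was abundant everywhere, with 581, 1013, 612 and 583 CPM in MamBo38, 286 CPM in MamBo43, 313 and 396 CPM in MamBo43 TRT, and 277, 384, 376 and 349.9 CPM in MamBo89. MamBo38 lay above all other libraries, and the other 3 groups overlapped. The log2 difference was 1.01 ± 0.20 between MamBo38 and MamBo89 (2.02-fold, adjusted p = 0.00131) and 1.29 ± 0.35 between MamBo38 and MamBo43 (2.45-fold, adjusted p = 0.0124). The first of these stood at the fold minimum and was 0.78 without MamBo38 replicate 2 and 0.93 without MamBo89 replicate 1, both under the minimum of 1. MamBo43 TRT was below MamBo38 by 0.97 ± 0.26 on the log2 scale (adjusted p = 0.0172), just under that minimum, and passed it without MamBo38 replicate 1, 3 or 4 or the 60-day library (-1.03 to -1.15). The minimum was also passed with the name code as a covariate and among libraries with a shared code, both of which rest on MamBo38 replicate 2 alone. It was passed with untreated MamBo89 and MamBo38 alone as well.

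Tpm2 differed far more than Tpm1. It stood at 103, 143, 116 and 108 CPM in MamBo38, at 65.5 and 121 CPM in MamBo43 TRT, at 3.58 CPM in MamBo43, and at 0.146, 0.184, 0.234 and 0.606 CPM in MamBo89, where the libraries held 3 to 11 counts. MamBo38 and MamBo43 TRT overlapped, and both were above MamBo43, which in turn was above MamBo89. The log2 difference was 8.66 ± 0.38 between MamBo38 and MamBo89 (405-fold, adjusted p = 3.95e-08) and 9.26 without MamBo89 replicate 4. It was 5.04 ± 0.55 between MamBo38 and MamBo43 (32.9-fold, adjusted p = 5.23e-05), 4.71 ± 0.55 between MamBo43 TRT and MamBo43 (26.2-fold, adjusted p = 0.000311) and 3.62 ± 0.48 between MamBo43 and MamBo89 (12.3-fold, adjusted p = 0.000587), the last rising to 4.22 without MamBo89 replicate 4. With untreated MamBo89 and MamBo38 alone, the first was 9.48 and the last 4.38. No difference was detected between MamBo43 TRT and MamBo38 (-0.33 ± 0.30, adjusted p = 0.437). On a scale of CPM per kilobase of exon, the level of Tpm1 was 2.37 to 3.18 times that of Tpm2 in MamBo38 and 1.47 to 2.15 times in MamBo43 TRT. It was 35.8 times that of Tpm2 in MamBo43 and 259 to 933 times in MamBo89.

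Myl9, the regulatory light chain of smooth muscle and non-muscle myosin, followed Acta2 in being highest in MamBo43 TRT, with 129 counts (6.33 CPM) in the 30-day and 926 counts (35.4 CPM) in the 60-day library. Untreated MamBo43 had 14 counts, MamBo38 had 4, 12, 2 and 1 counts, and MamBo89 had 1 count in 4 libraries. The 2 treated libraries lay above all others, whereas the range of MamBo38 reached down to that of MamBo89. MamBo43 TRT exceeded MamBo38 by 6.40 ± 0.86 on the log2 scale (84.2-fold, adjusted p = 0.000551) and MamBo43 by 5.24 ± 1.44 (37.7-fold, adjusted p = 0.02). Without the 60-day library the differences were 4.65 (adjusted p = 0.00949) and 3.51 (adjusted p = 0.121), without the 30-day library 7.17 and 5.97, and the first was 7.48 without MamBo38 replicate 2. The first was 4.95 both with the name code as a covariate and among libraries with a shared code, where MamBo38 rests on replicate 2 alone. The 19 counts of MamBo38 against 1 of MamBo89 gave a ratio of 18.0 with a 95% counting interval of 2.85 to 746 (adjusted p = 0.0432). Its fitted difference was 3.72, and it was 2.64 without MamBo38 replicate 2 (adjusted p = 0.154), 3.39 without MamBo89 replicate 1 (adjusted p = 0.114), 5.41 without MamBo89 replicate 3, 5.16 with the name code as a covariate and 6.23 with untreated cultures alone. Untreated MamBo43 against MamBo89 had a ratio of 42.7 (6.495 to 1805, adjusted p = 0.0567), and the call was lost without MamBo89 replicate 2, 3 or 4 (adjusted p = 0.101 to 0.114, with a fitted difference of 6.57 against 4.88 without replicate 3) and with untreated MamBo89 and MamBo38 alone (6.60, adjusted p = 0.202).

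Tagln and Cnn1, which encode the actin-binding proteins transgelin and calponin, were low in all cultures. Tagln had 11, 2, 9 and 10 counts in MamBo38, 48 in MamBo43, 34 and 125 in MamBo43 TRT after 30 and 60 days with trastuzumab, and 17, 24, 18 and 28 in MamBo89. In CPM, MamBo38 (0.112 to 0.537) lay below every other library and the 60-day library (4.78) above every other. Tagln was lower in MamBo38 than in MamBo89 (log2 difference -1.52 ± 0.51, adjusted p = 0.0226) and than in MamBo43 (-2.25 ± 0.68, adjusted p = 0.0214). In MamBo43 TRT it was higher than in MamBo38 by 3.04 ± 0.56 (8.21-fold, adjusted p = 0.00317) and by 2.08 without the 60-day library (adjusted p = 0.0586), and it did not pass the test against MamBo43 (0.78 ± 0.80, adjusted p = 0.489). With the name code as a covariate, the called differences of Tagln were -3.27, -4.00 and 4.79 in the same order, resting on the 2 counts of MamBo38 replicate 2. With untreated MamBo89 and MamBo38 alone, those of MamBo38 against MamBo89 and MamBo43 were not called (adjusted p = 0.219 and 0.12). Of the stretches of Tagln as long as a 75-base read, 53.3% are shared with the antisense gene Gm48529 or with Pcsk7, and the library kit does not mark the strand, so that reads of Tagln and of its antisense partner cannot be told apart. No such stretch of the other 8 genes was shared with another gene.

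Cnn1 had 9 and 33 counts in MamBo43 TRT, 0 in MamBo43, 2, 6, 5 and 3 in MamBo38, and 2, 8, 10 and 18 in MamBo89. The 60-day library was highest at 1.26 CPM, and MamBo89 replicates 3 and 4 (0.584 and 0.992 CPM) exceeded the 30-day library (0.442 CPM). Against a floor of 3 counts in the MamBo43 library, MamBo43 TRT was at least 7.22-fold higher (adjusted p = 0.0301), MamBo89 at least 4.33-fold higher (adjusted p = 0.064) and MamBo38 at least 1.78-fold higher (adjusted p = 0.0963). The first kept its call without the 60-day library with a fitted difference of 6.20 in place of 7.19 (adjusted p = 0.0984), and the last was lost without MamBo38 replicate 2, 3 or 4, MamBo89 replicate 2 or 3, or the 30-day library (adjusted p = 0.1001 to 0.14). MamBo43 TRT exceeded MamBo38 by 2.05 ± 0.81 on the log2 scale (adjusted p = 0.0812), a call that DESeq2 did not make (adjusted p = 0.117). This call was lost without MamBo38 replicate 1, 3 or 4, MamBo89 replicate 2 or 3 (adjusted p = 0.105 to 0.178), or the 60-day library (1.09, adjusted p = 0.533). It was also lost with the name code as a covariate (1.35, adjusted p = 0.474), in the libraries that share a code (1.34, adjusted p = 0.568) and with untreated MamBo89 and MamBo38 alone (1.99, adjusted p = 0.277). In the last 2 settings the differences of MamBo38 and of MamBo89 from MamBo43 were not called either (adjusted p = 0.128 to 0.268).

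**Figure D2:**
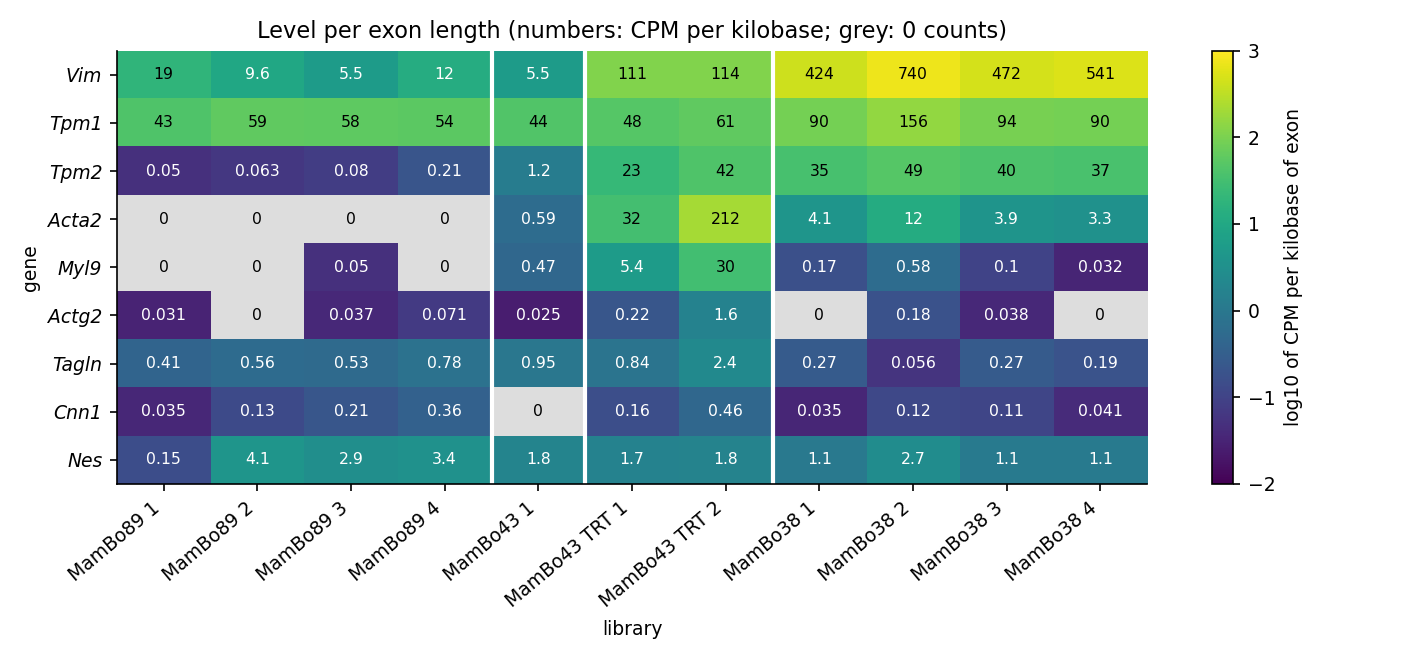
Level of the 9 genes in each library as CPM per kilobase of exon, printed in each cell and coloured on a log10 scale, with grey for 0 counts. Vim and Tpm1 carry most of the summed level in MamBo38 and MamBo89, and Acta2 joins them in MamBo43 TRT.

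Levels per length showed which of the 9 genes dominated in each culture. Vim made up 76.4 to 80.4% of their summed level per kilobase of exon in MamBo38, 24.5 to 50.1% in MamBo43 TRT, 10.04% in MamBo43 and 8.22 to 30.3% in MamBo89. Tpm1 made up 68.6 to 86.1% in MamBo89 and 80.7% in MamBo43, but 13.1 to 21.8% in MamBo43 TRT and 13.4 to 16.2% in MamBo38. The share of Acta2 was 14.2% in the 30-day and 45.5% in the 60-day MamBo43 TRT library and at most 1.26% in any other. Thus in the 60-day library the level of Vim per kilobase was 0.539 times that of Acta2, against 3.53 times in the 30-day library and 61.0 to 162 times in MamBo38.

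**Figure D3:**
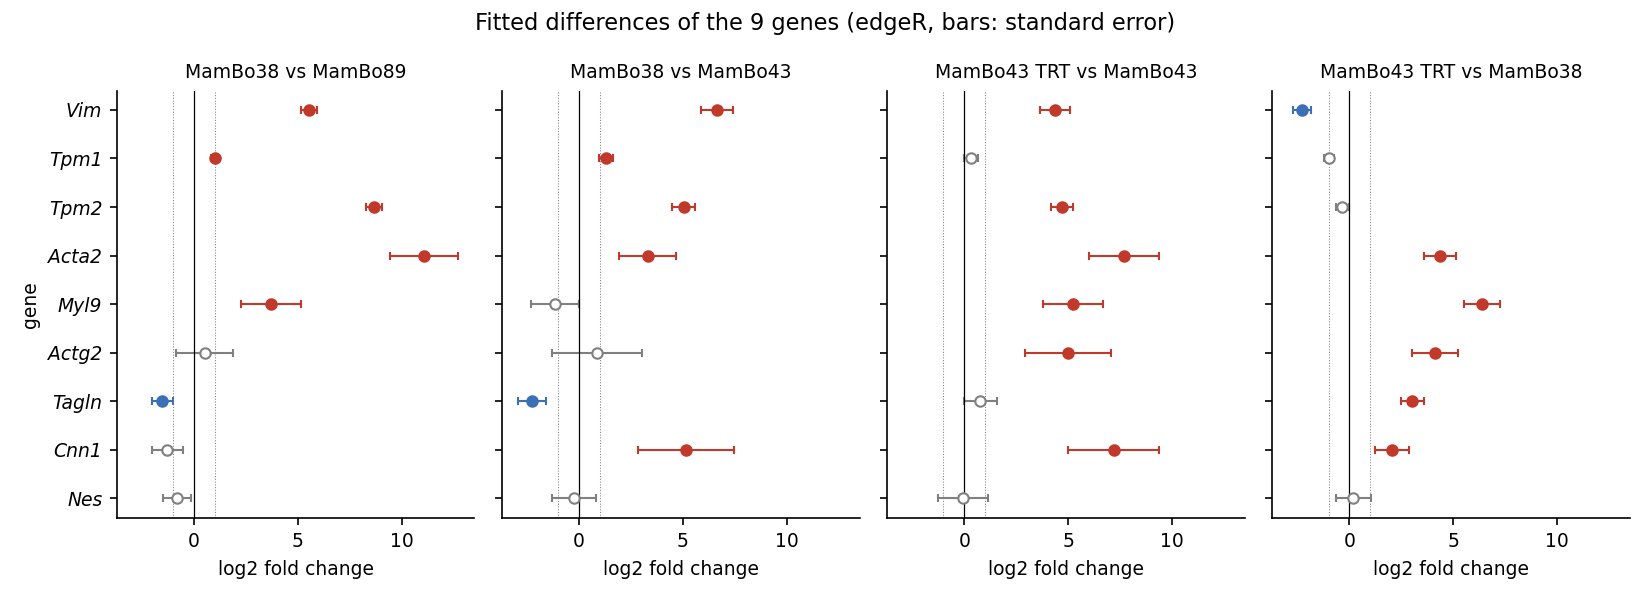
Log2 fold changes of the 9 genes fitted by edgeR in 4 comparisons, with bars for the standard error, filled symbols for genes called (red higher, blue lower) and dotted lines at the fold minimum of 1. Fitted values of genes at 0 counts in a whole group (Acta2 in MamBo89, Cnn1 in MamBo43) depend on the prior count. Between MamBo43 TRT and MamBo38, Vim is lower while 5 contractile genes are higher. Of these, Actg2 passed the filter on low counts only with 1 of the treated MamBo43 libraries included.

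Side by side, the comparisons differed in which of the genes they called. A call required adjusted p < 0.1 together with a 2-fold or larger difference, that is 1 on the log2 scale. Between MamBo38 and MamBo89, 5 of the 9 genes were higher (Vim, Acta2, Myl9, Tpm1 and Tpm2) and 1 was lower (Tagln), where 41.9% of 13782 genes were called, 19.9% higher and 22.0% lower. The median log2 difference of the 9 was 1.01, beside -0.07 over all genes tested. The ranges of both groups did not overlap for Vim, Acta2, Tpm1, Tpm2 and Tagln, and did not overlap for 59.3% of all genes. Without the AG3 library, 3 of the 9 were higher (Vim, Acta2 and Tpm2) and 3 lower (Nes, Tagln and Cnn1), with 42.9% of all genes called. Between MamBo38 and MamBo43, 5 were higher (Vim, Acta2, Cnn1, Tpm1 and Tpm2) and Tagln was lower, with 35.9% of all genes called (17.4% higher, 18.5% lower) and a median of 1.29 beside 0.00.

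Trastuzumab-treated MamBo43 departed from its untreated culture in 6 of the 9 genes, all higher (Vim, Acta2, Actg2, Myl9, Cnn1 and Tpm2), where 29.1% of all genes were called, 13.6% higher and 15.5% lower. The median of the 9 was 4.71, beside 0.00 over all genes. Actg2 passed the filter on low counts only with 1 of the treated libraries included, as given above. The same library carries its calls here and against MamBo38. Actg2 is therefore no independent support in the tally or the median of either comparison. Against MamBo38, the same treated cultures had 5 genes higher (Acta2, Actg2, Tagln, Myl9 and Cnn1) and Vim lower, where 20.4% of all genes were called, 10.2% higher and 10.2% lower. Here 7 of the 9 genes did not overlap between groups, beside 58.6% of all genes, and the median was 2.05 beside 0.01. This comparison is the direct test between both HER2-negative cultures, since their comparisons with MamBo43 share 1 library. Hence in the fit of all libraries Vim was the 1 gene called higher in MamBo38, and Tpm2 was at overlapping levels. Tpm1 fell short of the fold minimum in that fit and passed it in the other settings named for it above. The calls of Acta2, Actg2 and Cnn1 did not hold in the libraries that share a name code, as given for each gene above.

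Untreated MamBo43 and MamBo89, both HER2-positive, differed in 4 genes, with Acta2, Myl9 and Tpm2 higher and Cnn1 lower in MamBo43, where 18.9% of all genes were called, and 7.86% were lower in MamBo43. Of these only the call of Tpm2 passed an adjusted p of 0.05, and the median of the 9 was -0.28 beside -0.07 over all genes. With MamBo38 and MamBo43 TRT pooled as HER2-negative (n = 6) against HER2-positive (n = 5), 6 of the 9 genes passed the filter on low counts. Vim, Acta2 and Tpm2 were higher, where 32.8% of 12364 genes were called (15.8% higher), and no range of these 3 overlapped between both groups, beside 34.9% of all genes. All MamBo89 libraries are HER2-positive and the only ones of tumor A. With tumor of origin as a covariate, HER2 status is therefore compared within tumor B, where untreated MamBo43 is the lone HER2-positive library. The log2 difference of Tpm2 was 6.79 ± 0.85 (adjusted p = 7.55e-05), 8.55 without MamBo43 and 4.93 with tumor of origin as a covariate. That of Vim was 5.27 ± 0.65 (adjusted p = 6.92e-05) and 6.19 with that covariate. That of Acta2 was 8.37 ± 1.83 (adjusted p = 0.0028), 13.98 without MamBo43, which leaves all HER2-positive libraries at 0, and 6.40 without the 60-day library. Acta2 was not called with tumor of origin as a covariate (6.23, adjusted p = 0.233).

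**Figure D4:**
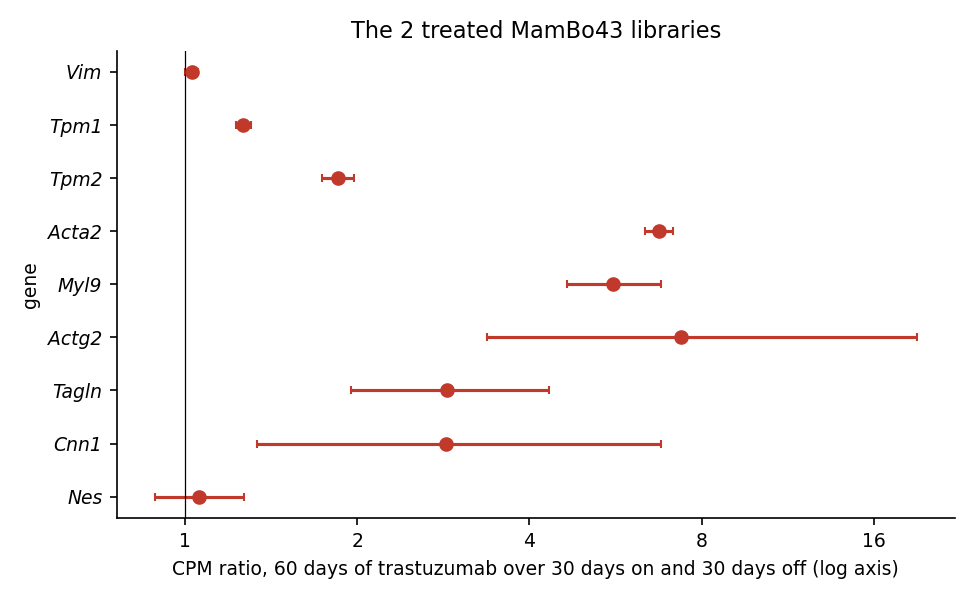
Ratio of CPM in the 60-day MamBo43 TRT library to the 30-day library (log axis) for the 9 genes, with bars for the 95% interval of counting error. Acta2, Actg2 and Myl9 are 5.59 to 7.35 times as high after 60 days, whereas Vim and Nes are near 1.

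Among the 9 genes, the 2 treated MamBo43 libraries stood furthest apart in Actg2, Acta2 and Myl9. Acta2 was 6.73 times (95% interval of counting error 6.37 to 7.12) as high in the 60-day library as in the library with 30 days on and 30 days off. Myl9 was 5.59 times (4.65 to 6.78) and Actg2 7.35 times (3.37 to 19.0) as high. Tagln and Cnn1 were 2.86 times as high (1.95 to 4.32 and 1.34 to 6.79), Tpm2 1.85 times and Tpm1 1.27 times. Vim stood at 1.028 times (1.003 to 1.054) and Nes at 1.06 times (0.887 to 1.27). Of 10004 genes over 5 CPM in either library, 5.83% were at least 2-fold apart. With 1 library per schedule there is no replicate check, and the schedule, the library and the state of the culture cannot be told apart. Other genes moved beside these: Krt14, a myoepithelial keratin, stood at 9.91 CPM in the 30-day and 111 CPM in the 60-day library, and Epcam, a luminal surface protein, at 159 and 30.7 CPM. Their part in the difference was not tested. Myh10 and Myh14, heavy chains of non-muscle myosin described below, also stood lower in the 60-day library.

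Within MamBo89 and within MamBo38, none of the 9 genes was called between the 2 treated and the 2 untreated libraries. edgeR tested 5 of them in MamBo89 and 6 in MamBo38, 0 had an unadjusted p under 0.05, DESeq2 called 0, and 0% of all genes were called in either line. The largest fitted values were 1.72 ± 0.95 for Cnn1 in MamBo89 and -1.17 ± 0.51 for Acta2 in MamBo38 (unadjusted p = 0.116 and 0.0676). With 1 library left out, 1 side of the comparison is a lone library, so only fitted values are given. Without MamBo89 replicate 2, the untreated side is the AG3 library alone, and the log2 difference was 4.34 for Nes and -1.10 for Vim. Without MamBo38 replicate 1, the untreated side is the library with the other name code alone. The log2 difference was then -1.27 for Nes, -1.74 for Acta2 and -3.14 for Myl9. Levels of Vim in MamBo38 were 2009.7 and 3511 CPM without trastuzumab and 2239 and 2566 CPM with it, so both groups overlapped. The difference between lines in their response was tested as an interaction. The log2 difference of Vim under trastuzumab was larger in MamBo43 than in MamBo89 by 5.04 ± 0.80 (adjusted p = 0.00818) and than in MamBo38 by 4.56 ± 0.78 (adjusted p = 0.00942), where 22.2% and 19.6% of all genes were called. That of Acta2 was larger in MamBo43 than in MamBo38 by 8.86 ± 1.78 (adjusted p = 0.025).

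Related genes were read from lists chosen with earlier results of these data known. Among 8 other intermediate filament genes, 5 were tested and 1 rose and 3 fell from MamBo89 to MamBo38, with a median log2 difference of -1.86. Des, the desmin of muscle cells, was higher by 3.84 ± 0.70 (1.09 to 1.91 CPM in MamBo38, 0 to 0.194 in MamBo89, adjusted p = 0.000687). Synm, which encodes synemin, was lower by 5.98 ± 0.27, from 156 to 355 CPM in MamBo89 to 4.19 to 4.86 CPM in MamBo38 (adjusted p = 5.1e-08). Nefh and Gfap, both lower, had at most 28 and 17 counts in a library, and 28 of the 36 counts of Nefh in MamBo89 came from the AG3 library. From MamBo43 to MamBo43 TRT, 1 gene of this list rose and 2 fell. Of 4 other actins, 3 were tested and edgeR called 0 between MamBo38 and MamBo89, with 1 at an unadjusted p under 0.05. The cytoplasmic actin Actb stood at 1065 ± 129 CPM (SD, n = 4) in MamBo38 and 1266 ± 287 (n = 4) in MamBo89. Acta1, the skeletal muscle actin and chosen here after its values were seen, was higher in MamBo43 TRT (1.33 and 2.79 CPM) than in MamBo43 by 4.07 ± 1.198 (adjusted p = 0.0265) and than in MamBo38 by 3.23 ± 0.67 (adjusted p = 0.00556).

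Of 12 other transgelin, calponin, tropomyosin and myosin genes, 11 were tested and 1 rose and 2 fell from MamBo89 to MamBo38, with a median of -0.18. Cnn2, a calponin of non-muscle cells, was higher by 1.86 ± 0.21 (189 ± 31.9 against 52.4 ± 13.2 CPM, SD, n = 4 each, adjusted p = 2.38e-05). Of the non-muscle myosin heavy chains, Myh9 was by far the most abundant, at 1064 to 1286 CPM in MamBo38 and 902 to 1472 CPM in MamBo89, and did not pass the test (log2 difference -0.07 ± 0.17, adjusted p = 0.735). Myh14 and Myh10 were lower in MamBo38, with a log2 difference of -8.16 ± 0.61 for Myh14 (0.239 to 1.06 against 73.6 to 218 CPM, adjusted p = 1.34e-06) and of -6.32 ± 0.48 for Myh10 (0.168 to 0.656 against 21.6 to 31.4 CPM, adjusted p = 1.4e-06). In MamBo43 TRT, Myh9 stood at 2074 to 2770 CPM, higher than in MamBo38 by 1.09 ± 0.21 (adjusted p = 0.00375). Myh10 stood at 87.0 CPM in the 30-day and 27.4 CPM in the 60-day library, and Myh14 at 237 and 78.5 CPM. From MamBo43 to MamBo43 TRT, 4 genes of this list rose and 1 fell (median 0.47).

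Of 12 other smooth muscle and actin-binding genes, 11 were tested and 5 were higher and 1 lower in MamBo38 than in MamBo89, with a median of 0.83. Synpo2, an actin-bundling protein of muscle, had no count in MamBo89 and stood at 3.71 to 6.31 CPM in MamBo38 (adjusted p = 5.58e-06). Mylk, the kinase that phosphorylates the regulatory light chain, was higher by 3.47 ± 0.28 (15.3 ± 5.16 against 1.37 ± 0.27 CPM, adjusted p = 2.25e-06), and Ppp1r12b, a subunit of the light chain phosphatase, by 2.85 ± 0.28 (adjusted p = 9.69e-06). Lmod1, an actin nucleator of smooth muscle, was higher by 4.68 ± 0.39 (2.12 to 3.29 against 0.0485 to 0.184 CPM, adjusted p = 2.75e-06), and untreated MamBo43 had more of it still at 23.2 CPM. From MamBo43 to MamBo43 TRT, 3 genes of this list rose and 1 fell (median 0.74), and between MamBo43 TRT and MamBo38, 2 were higher and 3 lower (median 0.30). Mylk and Synpo2 were lower in MamBo43 TRT than in MamBo38, by 1.52 ± 0.33 (adjusted p = 0.00684) and by 2.12 ± 0.42 (adjusted p = 0.0088). The smooth muscle myosin heavy chain Myh11 had at most 14 counts in any library.

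Genes of SRF, its cofactors and its known targets were read from a list of 10, of which 9 were tested. Of these, 0 were higher and 3 lower in MamBo38 than in MamBo89 (median -0.46), and 0 were higher and 3 lower in MamBo43 TRT than in MamBo43 (median -1.06). In MamBo43 TRT 3 were higher and 0 lower than in MamBo38 (median -0.02). The lower genes of the first comparison were Fhl1, a muscle LIM protein (log2 difference -3.40 ± 0.83, adjusted p = 0.00437), and the immediate early genes Fos (-2.65 ± 0.37, adjusted p = 0.000106) and Egr1 (-1.25 ± 0.24, adjusted p = 0.00107). Fos stood at 63.8 to 134 CPM in MamBo38, 373 and 479 in MamBo43 TRT, 1697 in MamBo43 and 284 to 1012 in MamBo89. Srf itself stood at 52.2 ± 13.9 CPM in MamBo38 and 58.1 ± 9.61 in MamBo89 (SD, n = 4 each, log2 difference -0.15 ± 0.20, adjusted p = 0.529). Mrtfa, a cofactor of SRF, differed by 0.74 ± 0.16 (adjusted p = 0.00228), under the fold minimum. Myocd, the cofactor of smooth muscle and heart, had at most 2 counts in a library.

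The genes whose pattern was most like each of the 9 were found by Pearson correlation of log2(CPM + 1) over the 11 libraries. These are descriptions, since the libraries of a line share their origin and fall into separate groups. For Vim they were Gdnf, Gpr137b and Mctp1 (r = 0.99 each), and for Tpm2 they were Flnc, Ror2 and Serpinf1 (r = 0.998 to 0.999). Acta2 was closest to Mrpl42, Fam57b and Fermt3 (r = 0.98), and Myl9 to Islr, Col10a1 and Tfr2 (r = 0.99). Actg2 was closest to Grb10, Saa3 and Tfr2 (r = 0.97 to 0.98), Tpm1 to Mrtfa, Chic1 and Plat (r = 0.97 to 0.98) and Nes to Tbl2, Rilpl2 and 2610507B11Rik (r = 0.90 to 0.94). Tagln was closest to C3, Rsu1 and Limk2 (r = 0.91 to 0.95) and Cnn1 to Aldh4a1, Psmb9 and Lag3 (r = 0.89 to 0.92). No other member of the 9 was among the 3 closest genes of any of them.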

How the data were processed

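RNA of 11 libraries was sequenced with a TruSeq kit that does not mark the strand, as 75-base single reads. The deposited values are expected counts per gene that the authors made with STAR 2.5 and RSEM 1.3.0 on mm10, as the methods and the submitters' processing notes state. All values were whole numbers, and 0 columns could not be tied to a sample.

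Counts were scaled by TMM and tested with edgeR 4.0.16 (limma 3.58.1, R 4.3.3) by the quasi-likelihood test with Benjamini-Hochberg adjustment over all genes tested. Genes passed filterByExpr (minimum count 10, minimum total 15), with a prior count of 0.125 for fitted fold changes, which for genes at 0 in a group are no bound. Bounds took 3 counts per library as the floor. The standard error of a log2 fold change was its size over the square root of F. Calls needed adjusted p < 0.1 with a log2 difference of 1 or more in size. Four-group comparisons had 7 residual degrees of freedom. Ratio intervals are exact at 95%, and floors and intervals cover counting error only.

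The 9 genes and the lists of related genes and cell type markers were chosen with earlier results of these data known. Of each list of related genes, up to 4 called genes with the largest difference between MamBo38 and MamBo89 were named, and Acta1, Actb, Myh9, Srf, Mrtfa, Myocd, Myh11, Krt14 and Epcam were named after their values were seen. The scripts were tested on simulated data. DESeq2 1.42.0, other scaling, other filters, covariates and leaving out libraries were tried as alternatives. Figures were drawn with matplotlib 3.10.9.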

Additional observations from a re-analysis of the deposited data

Results flagged for a closer look

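In groups of 4 to 6 libraries, a library was marked when its gap to the nearest other library took up more of the range than chance gives in about 1 in 20 groups. That rate assumes libraries of 1 kind. It does not hold for the HER2-negative and HER2-positive sets, which pool different lines, so marks there restate differences between lines or cultures. Of 32 sets of values, 11 were marked. In MamBo38, replicate 2 stood above the other 3 libraries in Nes (17.3 CPM, next 7.16), Acta2 (26.6 CPM, next 9.06) and Tpm1 (1013 CPM, next 612). Among the 6 HER2-negative libraries, the MamBo43 TRT library with 60 days of trastuzumab stood above the rest in Acta2 (466 CPM, next 69.2), Actg2 (2.52 CPM, next 0.344), Tagln (4.78 CPM, next 1.67), Myl9 (35.4 CPM, next 6.33) and Cnn1 (1.26 CPM, next 0.442). Among the 5 HER2-positive libraries, untreated MamBo43 stood above the 4 MamBo89 libraries in Acta2 (1.297 CPM, next 0), Myl9 (0.550 CPM, next 0.0584) and Tpm2 (3.58 CPM, next 0.606).

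The log2 difference between trastuzumab-treated and untreated cultures differed between lines in an interaction test by edgeR, with the lone untreated MamBo43 library assumed to vary like the others. Between MamBo43 and MamBo89, the difference of the effects was 5.04 for Vim (adjusted p = 0.00818) and 3.39 for Tpm2 (adjusted p = 0.0491), where 22.2% of all genes were called. Between MamBo43 and MamBo38, it was 4.56 for Vim (adjusted p = 0.00942), 8.86 for Acta2 (adjusted p = 0.025), 7.72 for Myl9 (adjusted p = 0.0352), 7.30 for Cnn1 (adjusted p = 0.0814) and 4.84 for Tpm2 (adjusted p = 0.00226), where 19.6% of all genes were called.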

How the results depend on the processing

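Of 571 alternative values of the 31 called gene results, 502 kept direction and call, 69 lost the call and 0 changed sign. With at least 10 counts in every library required, only 3 of the 9 genes (Vim, Nes and Tpm1) could be tested. Of these, 2 were called between MamBo38 and MamBo89 and 2 between MamBo38 and MamBo43, beside 29.5% and 27.3% of all genes. Calls numbered 1 between MamBo43 TRT and MamBo38 (12.8% of all genes) and 1 between MamBo43 TRT and MamBo43 (23.9%). MamBo43 against MamBo89 gave 0 (13.5%), and HER2-negative against HER2-positive gave 1 (25.3%). That last number was 5 with DESeq2 (22.5% of all genes) and 5 without a filter (31.3%), as Actg2 and Myl9 were then tested. Between MamBo43 and MamBo89, 1 was called at an adjusted p under 0.05 (15.2% of all genes) and 2 in libraries that share a name code (15%). With untreated MamBo89 and MamBo38 alone 1 was called (8.91%), and with 1 library left out 2 to 4 were called. Between MamBo38 and MamBo43, 3 were called with untreated cultures alone (30.6%). Leaving out 1 library gave 3 to 4 for HER2 status and 5 to 6 between MamBo43 TRT and MamBo38. It gave 4 to 6 between MamBo38 and MamBo89, between MamBo38 and MamBo43, and between MamBo43 TRT and MamBo43. For trastuzumab within MamBo38 or MamBo89 it left 1 library on a side, so no number is given. The cause of these shifts was not tested.

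The 34 reversals all concerned uncalled results. With 1 library left out, Actg2 ran from -1.04 to 1.36 (log2) between MamBo38 and MamBo43 (-1.06 without AG3 and MamBo38 replicate 2, a fit chosen after seeing the data), from -1.40 to 1.05 between MamBo38 and MamBo89 (-1.42 in that fit) and from -0.78 to 0.18 between MamBo43 and MamBo89 (0.60 in untreated cultures). Nes ran from -1.27 to 0.0362 under trastuzumab in MamBo38 and from -0.37 to 4.34 in MamBo89. Tagln ran from -0.99 to 0.32 for HER2 status (-0.48 with tumor of origin as covariate), from -0.17 to 1.32 between MamBo43 TRT and MamBo43, and from -0.28 to 0.19 under trastuzumab in MamBo38. Tpm1 ran from -0.74 to 0.0243 and from -0.072 to 0.35 under trastuzumab in MamBo38 and MamBo89. Tpm2 ran from -0.84 to 0.0581 between MamBo43 TRT and MamBo38 and from -0.33 to 0.11 under trastuzumab in MamBo38, and Vim from -0.52 to 0.24 there. With the name code as covariate, and in libraries that share a code, Myl9 was 0.29 and 0.29 and Nes 0.60 and 0.60 between MamBo38 and MamBo43, Nes was 0.0351 and 0.0362 between MamBo38 and MamBo89, and -0.66 and -0.66 between MamBo43 TRT and MamBo38. In untreated cultures Nes was 0.0788 and -0.14 for the first and last of these comparisons. In MamBo38 libraries that share a code, trastuzumab gave 0.0362 for Nes, -0.28 for Tagln, 0.0243 for Tpm1, 0.11 for Tpm2 and 0.24 for Vim. No analysis paired by schedule was run, and the labels carry no replicate numbers. Depth limits Actg2, Myl9, Tagln and Cnn1, which had under 50 counts in most libraries.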
